A study of Rattus norvegicus with 28 samples.

Results

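Gabbr1 encodes the subunit of the metabotropic GABA-B receptor that binds GABA. It was described on every feature of the array that the platform annotation assigns to it, 8 of 228 features, and the gene was chosen by the ratios of its feature 76 in PAG and RVM, the brain regions described below. Of the 8 features, 6 (34, 35, 36, 37, 38 and 76) carry the accession AB016160, feature 75 carries AF110797 and feature 220 carries Y10370. Sequences of the spotted oligonucleotides were not used here, so where on the transcript each feature lies is not given.

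The GABA-B receptor works as a pair of subunits. Gabbr1 holds the site for GABA and for the agonist baclofen, and its partner Gabbr2 couples the receptor to G proteins, through which calcium channels of nerve endings close and potassium channels of the cell body open. In pain control, neurons of the periaqueductal grey drive the rostral ventromedial medulla, which in turn acts on the dorsal horn of the spinal cord, and GABA-releasing neurons hold this path in check at each step.

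The arrays came from male rats. Pups had been injected on postnatal day 3 into the left hindpaw with saline or with 0.25% carrageenan, a seaweed polysaccharide that inflames tissue, in 0.9% saline at 1 µl per g, were weaned on day 21 and were kept until day 59. Each of 28 arrays set RNA of an injected animal against RNA of the same region from a control animal that was raised alike but not injected, each channel with a dye of its own. There were 5 arrays of PAG (read here as the periaqueductal grey) after carrageenan, 5 of PAG after saline, 5 of RVM (the rostral ventromedial medulla) after carrageenan, 4 of RVM after saline, 5 of the left lumbar dorsal horn (LDH) and 4 of the right one, both sides after carrageenan in the left paw. The labels give no strain and do not tell whether each array had an animal of its own, so a p-value here reflects how far arrays scattered, part of which can be technical.

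Each value is the log2 ratio of injected over uninjected, so that -1 stands for a halved signal. This direction is likely rather than stated, because the injected animal was channel 1 throughout. Were it the reverse, every sign would turn. Dyes were not swapped, so an effect of the dyes and one of the injection cannot be told apart in a ratio against uninjected animals, whereas it is shared by groups that are compared with each other. An exact 0 was taken as not measured. Arrays measured 7 to 195 features, and 4 arrays measured fewer than 40 (PAG saline array 5, RVM carrageenan arrays 2 and 4, and LDH right array 1, with 33, 30, 29 and 7). In tissue RNA, fewer cells of a type and less RNA per cell cannot be told apart, and a ratio within a region gives no level against which the label of that region could be checked. Of 4 marker lists for neurons, astrocytes, microglia and oligodendrocytes, no gene had a feature under its name. Of 3 serotonin neuron markers 1 was on the array, the serotonin transporter Slc6a4. It rose in PAG after carrageenan against uninjected animals (0.88, limma adjusted p = 0.0224), where 14.1% of all 78 features tested were called. After saline it read 0.48 (limma adjusted p = 0.383), and the 2 injections differed by 0.39 (95% interval -0.21 to 1.00). The part of Slc6a4 in the Gabbr1 values was not tested.

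The 8 features differed in how often they were measured. Feature 76 gave a ratio on 27 of 28 arrays, feature 36 on 21, feature 37 on 15, features 35 and 220 on 11 each, feature 38 on 9, and features 34 and 75 on 4 each. Feature 76 lay below 0 on 22 of its 27 arrays. Features 35, 37 and 38 lay mostly the other way, above 0 on 10 of 11, 12 of 15 and 7 of 9 arrays. Feature 36 was split, below 0 on 10 and above 0 on 11 arrays, and feature 220 lay below 0 on 8 of 11. A median of 5 Gabbr1 features was measured on PAG carrageenan arrays, of 3 on PAG saline arrays, of 3 on RVM carrageenan arrays and of 4.5 on RVM saline arrays. Medians were 3 in left LDH and 1.5 in right LDH. RVM carrageenan array 4 measured none.

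**Figure D1:**
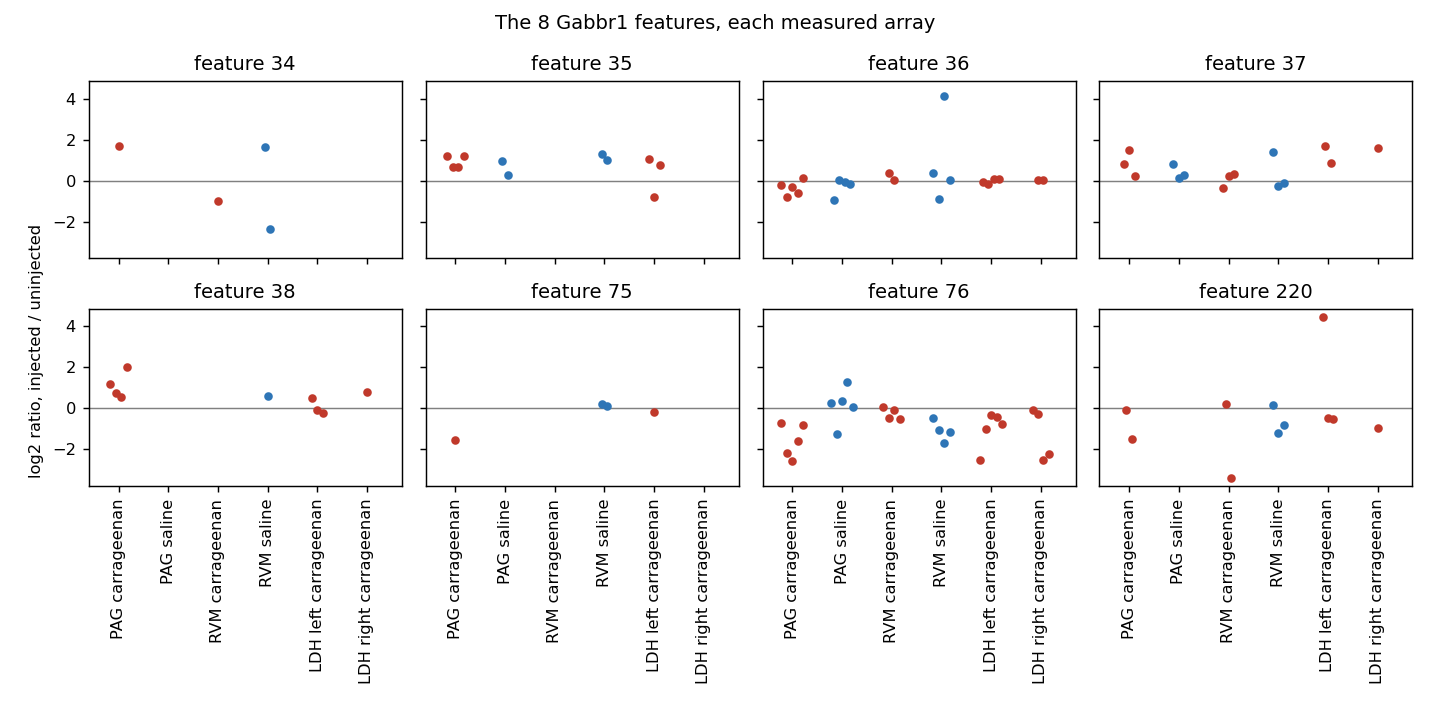
Log2 ratio (injected over uninjected, vertical axis) of each of the 8 Gabbr1 features on every array that measured it, by group (horizontal axis; red, carrageenan; blue, saline; 1 point per array). Feature 76 lies below 0 on 22 of 27 arrays, whereas feature 35 lies above 0 on 10 of 11 and feature 37 on 12 of 15.

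In PAG after carrageenan, feature 76 was low on every array, at -0.70, -2.19, -2.58, -1.61 and -0.79 on arrays 1 to 5. After saline it read 0.25, -1.24, 0.35, 1.26 and 0.074. The ranges overlap through a single array, saline array 2, since the other saline arrays lay above 0. The mean was -1.58 ± 0.83 after carrageenan (SD, n = 5), a ratio of 0.336 to the uninjected control, and 0.14 ± 0.90 after saline (n = 5), a ratio of 1.10. The difference of -1.71 (SE 0.51 from limma) is a description, because Gabbr1 was chosen with it known, and no test is given.

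Features 36 and 37 were the other Gabbr1 features measured on at least 3 arrays of each PAG group. Feature 36, with the same accession, read -0.20, -0.78, -0.32, -0.59 and 0.11 after carrageenan and -0.97, 0.033, -0.055 and -0.17 on saline arrays 1 to 4. Its means of -0.36 ± 0.35 (n = 5) and -0.29 ± 0.46 (n = 4) differed by -0.066 (SE 0.26), less than either spread. Feature 37 was above 0 on all arrays that measured it, at 0.79, 1.51 and 0.25 on carrageenan arrays 1, 2 and 5 and at 0.81, 0.12 and 0.26 on saline arrays 1, 3 and 4. It differed by 0.45 (SE 0.39), opposite in sign to feature 76 but close to the size of its error. With the replicate number as a block this difference was -0.023, and under quantile normalization it was 0.085.

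Features 35 and 38 lay above 0 in PAG wherever they were measured. After carrageenan feature 35 read 1.20, 0.69, 0.68 and 1.21 on arrays 1 to 4 (mean 0.94 ± 0.30), and feature 38 read 1.20, 0.75, 0.57 and 1.99 on the same arrays (mean 1.13 ± 0.63). These are the arrays on which feature 76 read between -2.58 and -0.70. After saline feature 35 had 2 values, 0.97 and 0.28, and feature 38 none, so neither entered the comparison. Features 220 and 75 lay below 0 like feature 76, feature 220 at -0.089 and -1.52 on carrageenan arrays 1 and 4 and feature 75 at -1.53 on array 4, and neither was measured after saline.

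A single array shows how far features of this gene lay apart. PAG carrageenan array 4 measured 7 of them. Features 34, 35 and 38 read 1.69, 1.21 and 1.99, while features 36, 75, 76 and 220 read -0.59, -1.53, -1.61 and -1.52. The highest and the lowest were 3.60 apart on the log2 scale. Of the 24 arrays that measured at least 2 Gabbr1 features, 22 had features on both sides of 0. The exceptions were RVM saline array 2, with 4 features below 0, and LDH left array 3, with 3 below 0.

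Setting features against each other on the same array gave the same order in most cases. Feature 36 was above feature 76 on 18 of 21 arrays, with a median gap of 0.82. Feature 37 was above feature 76 on 12 of 15 arrays, feature 35 on 10 of 11 and feature 38 on 9 of 9. Across the arrays that measured each pair, which share RNA, dye and hybridisation, Pearson's r with feature 76 was -0.12 for feature 36 (21 arrays; rho 0.096; 0.40 without the 2 arrays where feature 36 was farthest from its median). It was -0.49 for feature 37 (15 arrays; rho -0.32; -0.32 without 2 such arrays). For features 35 and 38 it was -0.22 (11 arrays; rho -0.21; 0.15 without 2 such arrays) and -0.39 (9 arrays; rho -0.47; -0.30 without 2). For feature 220 it was -0.44 (11 arrays; rho 0.19; 0.29 without the 2 arrays where feature 76 was farthest from its median), with the sign of feature 76 on 8 of 11 arrays. Features 34 and 75 shared 4 arrays each with feature 76, too few for a correlation. The r of features 35, 36 and 220 turned positive without 2 arrays, so these values rest on few arrays.

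In RVM the groups lay the other way round. Feature 76 read 0.070, -0.49, -0.086 and -0.54 on carrageenan arrays 1, 2, 3 and 5, and -0.46, -1.06, -1.68 and -1.13 on saline arrays 1 to 4. Saline arrays were lower, and the ranges overlapped between -0.54 and -0.46. The means were -0.26 ± 0.30 after carrageenan (n = 4) and -1.08 ± 0.50 after saline (n = 4). The difference of 0.82 (SE 0.28 from limma) is again a description with no test.

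The spread of all ratios on an array also differed between these groups. The interquartile range of all measured ratios lay between 0.33 and 0.73 on RVM carrageenan arrays and between 0.63 and 1.80 on RVM saline arrays. Quantile normalization, which gives every array the same distribution of ratios, brought the RVM difference of feature 76 from 0.82 to 0.11. In PAG the interquartile range lay between 0.64 and 1.75 after carrageenan and between 0.13 and 0.78 after saline. There the difference was as large under quantile normalization, at -1.83. The part of the array spread in the RVM difference was not tested.

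The place of feature 76 among the features of its own array does not change when all ratios of an array are stretched or shrunk alike. It is taken among the features each array measured, 86 to 181 on PAG carrageenan arrays and 33 to 95 on PAG saline arrays. Shares from different arrays thus rest on unlike sets of features. On PAG carrageenan arrays 6.37% to 24.3% of the measured features had a lower ratio (median 11.6%). On PAG saline arrays this share was 79.3%, 13.3%, 87.2%, 96.8% and 69.7% on arrays 1 to 5, so the groups again overlapped through array 2 alone. In RVM the shares were 59.3%, 6.67%, 33.6% and 11.1% after carrageenan, against 21%, 22.6%, 7.80% and 15.9% after saline, and the range after saline lay wholly within that after carrageenan. In LDH the share was between 7% and 19.2% on the left and between 2.22% and 28.6% on the right. The 28.6% is that of right array 1, which measured 7 features in all. The share was 28.6% or less on every array that measured feature 76, except 4 of PAG saline and 2 of RVM carrageenan. With the direction of the ratio turned, it is the share of features with a higher ratio.

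**Figure D2:**
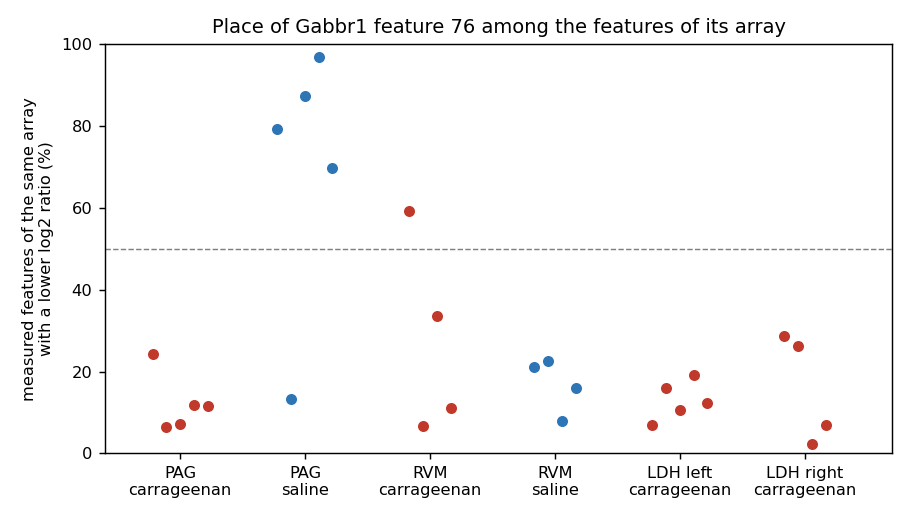
Share of the measured features of the same array that had a lower log2 ratio than Gabbr1 feature 76 (vertical axis, %), by group (red, carrageenan; blue, saline; 1 point per array; dashed line at 50%). PAG saline arrays other than array 2 lie between 69.7% and 96.8%, whereas PAG carrageenan arrays lie between 6.37% and 24.3%, and the RVM groups overlap.

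The remaining RVM values were few. Feature 37 read -0.37, 0.24 and 0.34 on carrageenan arrays 1, 3 and 5 and 1.42, -0.25 and -0.093 on saline arrays 1, 2 and 4, a difference of -0.29 (SE 0.52) that is smaller than its error. Feature 36 read 0.39 and 0.020 on carrageenan arrays 1 and 2 and 0.36, -0.92, 4.15 and 0.024 on saline arrays. Saline array 3 therefore held the highest value of feature 36 in the series and the lowest RVM value of feature 76, -1.68, on the same slide. Feature 35 was measured on RVM saline arrays 3 and 4, at 1.32 and 0.99, and on no RVM carrageenan array. Feature 220 ranged from -3.40 to 0.23 over 5 RVM arrays.

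The dorsal horn was the region whose values had not led to the choice of this gene, and there the ratios were tested. The question was whether Gabbr1 differed between the side of the injected paw and the other side. Feature 76 read -2.54, -1.02, -0.31, -0.44 and -0.77 on left arrays 1 to 5 and -0.070, -0.27, -2.52 and -2.23 on right arrays 1 to 4. All 9 arrays lay below 0. The left values lay within the range of the right ones except for left array 1, which was slightly lower than any right array, and the right side fell into 2 values near 0 and 2 below -2.

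Left and right did not differ beyond that spread. The means were -1.01 ± 0.90 (SD, n = 5) on the left and -1.27 ± 1.28 (n = 4) on the right, and the difference of 0.26 had a 95% interval of -1.24 to 1.76 (limma, adjusted p = 0.854 over 29 features). An exact two-sided permutation test over arrays gave p = 0.794, where the smallest p it allows is 0.0159. The interval is wide enough to hold differences of the size seen in RVM. Without right array 3 or right array 4 the sign of the difference turned, to -0.16 and -0.063. In this comparison 0 of 29 features were called (0%), and 0 had an unadjusted p below 0.05.

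Against uninjected animals, feature 76 had the fifth smallest p of 29 features on the left and the smallest on the right, and passed the threshold on neither side. On the left the mean of -1.01 had a 95% interval of -2.02 to -0.014 (limma, unadjusted p = 0.0474, adjusted p = 0.275). On the right the mean of -1.27 had an interval of -2.39 to -0.15 (limma, unadjusted p = 0.0302, adjusted p = 0.557). Of the 29 features, 0 were called on the left (0%) and 0 on the right (0%), with 5 and 1 below an unadjusted p of 0.05. Without left array 1 the left mean was -0.63, and without right array 1, which measured 7 features in all, the right mean was -1.67. Without right array 3 it was -0.86.

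No other Gabbr1 feature in LDH met the minimum of 3 measured arrays on each side. Feature 36 read -0.056, -0.16, 0.095 and 0.090 on left arrays 2 to 5 and 0.034 and 0.021 on right arrays 2 and 4, all close to 0. With a minimum of 2 arrays it entered the fit, and left minus right was -0.035 (95% interval -0.38 to 0.31, limma adjusted p = 0.934 over 61 features). Feature 37 was above 0 at 1.68 and 0.84 on left arrays 2 and 4 and at 1.59 on right array 4. Feature 35 read 1.07, -0.78 and 0.78 on left arrays 1, 2 and 4. Feature 220 read 4.46 on left array 1 and -0.47 and -0.50 on left arrays 2 and 4. Left array 1, the lowest left array for feature 76, thus held the highest Gabbr1 value of the series on feature 220. It also had the widest interquartile range of all measured ratios in the series, 2.02. That range lay between 0.26 and 2.02 on left arrays and between 0.22 and 0.55 on right arrays. The part of this spread in the LDH values was not tested.

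Over all 6 groups, the means of feature 76 ran from PAG carrageenan (-1.58) through LDH right (-1.27), RVM saline (-1.08), LDH left (-1.01) and RVM carrageenan (-0.26) to PAG saline (0.14). No pair of neighbours in this order was separated, since their ranges overlapped in every case. Groups farther apart could be separate on this scale, as PAG carrageenan (-2.58 to -0.70) lay wholly below RVM carrageenan (-0.54 to 0.070). Both sets of values were known when the gene was chosen, and how many other features separate these groups was not counted. By place within the array these groups overlapped, with 6.37% to 24.3% and 6.67% to 59.3% of measured features having a lower ratio. The widest gap between neighbours was 0.75, from LDH left to RVM carrageenan. This gap was smaller than the SD of the left LDH arrays (0.90) but larger than that of the RVM carrageenan arrays (0.30). Among the 58 features measured on at least 20 arrays, only 3 lay below 0 on a larger share of their arrays than feature 76 (81.5%), and the median feature did so on 39.6%. With the direction of the ratio turned, these are shares above 0. Those 3 were Grik3 feature 88, a kainate receptor subunit (100%), the unnamed feature 181 (95.2%) and Grin2b feature 169, an NMDA receptor subunit (92.6%), named after their values were seen. The PAG and RVM values of feature 76, by which the gene was chosen, are counted in its share. Its place among the 58 features is therefore a description and lends no support.

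**Figure D3:**
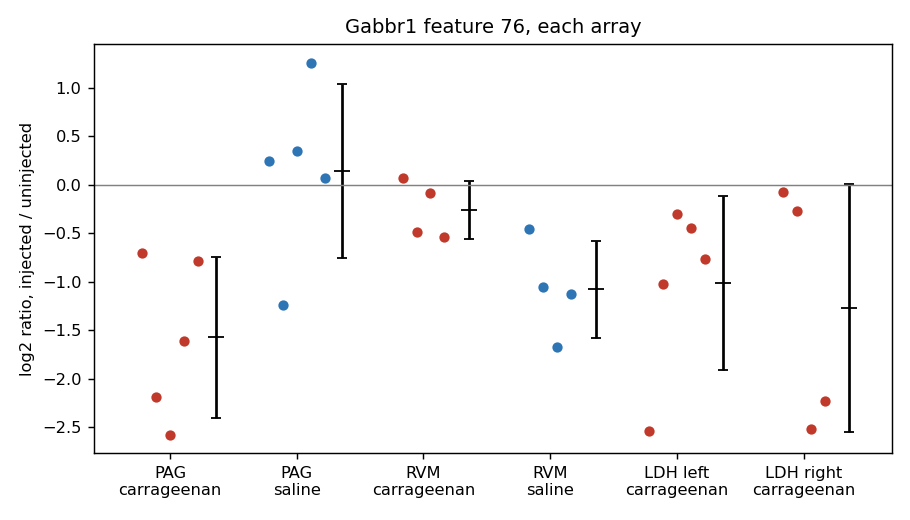
Log2 ratio (injected over uninjected, vertical axis) of Gabbr1 feature 76 on each array, by group (red, carrageenan; blue, saline). Points are arrays, and the bar beside each group is its mean ± SD (n = 4 or 5); all PAG carrageenan, RVM saline and LDH arrays lie below 0, and neighbouring groups in the order of means overlap.

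Features whose ratios moved most like feature 76 across arrays were sought among the 81 features of other genes that shared at least 15 measured arrays with it. The highest Pearson r was that of Grik3 feature 88, at 0.60 over 25 arrays (rho 0.53; 0.49 without the 2 arrays where feature 76 was farthest from its median). Hrh3 feature 95, a histamine receptor, followed at 0.47 (25 arrays; rho 0.41; 0.24 without 2), and Grin2d feature 171, an NMDA receptor subunit, at 0.44 (25 arrays; rho 0.16; 0.56 without 2). Penk feature 194, the enkephalin precursor, had 0.42 (22 arrays; rho 0.61; 0.34 without 2) and Gabrd, an extrasynaptic GABA-A subunit, 0.42 (20 arrays; rho 0.43; 0.46 without 2). Penk feature 196 had the opposite sign, at -0.16 (21 arrays, rho 0.032). Grik3 feature 89 and Grin2d feature 167 were positive, at 0.39 (16 arrays) and 0.27 (17 arrays).

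The features most opposed to it were Tac1 feature 55, the substance P precursor, at -0.61 (22 arrays; rho -0.78; -0.64 without 2), and Ngfr, the low-affinity neurotrophin receptor, at -0.59 (26 arrays; rho -0.67; -0.58 without 2). Over the 81 features r had a median of -0.045 and ran from -0.61 to 0.60. The arrays compared share their RNA and their dyes between features and fall into groups, so these values describe the arrays and carry no test.

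The other genes of GABA signalling were counted from lists. Gabbr2, the partner without which Gabbr1 does not reach the cell surface, had no feature under its name, nor had the 6 potassium and calcium channel genes listed as targets of the receptor or the 7 genes of glycine signalling. Of 8 genes for the synthesis, breakdown and transport of GABA, 4 were on the array, and of 19 GABA-A and GABA-rho subunits 13 were, with 14 features. A feature entered a test when each group had at least 3 measured arrays.

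In PAG, carrageenan against saline, 0 of 8 such features were called in either direction by limma, against 0 of 78 over all features (0%). The 10 features of the whole array with an unadjusted p below 0.05 included 1 of the 8, Slc6a13, a GABA transporter, at 1.47 (95% interval 0.49 to 2.46, adjusted p = 0.333). Gad2, an enzyme that makes GABA, differed by -0.088 (95% interval -0.43 to 0.26). The 6 subunit features had a median difference of -0.26, with 5 below 0, where all 78 had a median of 0.14. Gabra2, Gabra5, Gabrr1 and both Gabre features lay below 0, and Gabrq above it at 0.25, all with intervals that included 0.

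Against uninjected animals, Slc6a13 rose in PAG after carrageenan (mean 1.21 ± 0.72, n = 4, limma adjusted p = 0.0342), the 1 call among 8 GABA features, against 14.1% of 78 features. After saline it read -0.26 ± 0.23 (n = 3), and 0 of the 8 were called (0% of all 78). The listed features measured on no PAG saline array, 8 in number, entered no test, and Gabrr2 among them was measured on no PAG array. PAG saline arrays measured fewer features in all, 33 to 95 against 86 to 181 on PAG carrageenan arrays. After carrageenan Gabra3 read -2.54 ± 1.57 (n = 5), Gabra6 -1.93 ± 2.30 (n = 5) and the GABA transporter Slc6a11 -1.24 ± 0.81 (n = 4), below 0 on every array that measured them. The subunit Gabrg1 read -1.04 ± 1.01 (n = 4), below 0 on 3 of 4 arrays. Above 0 lay Gabra4, at 0.60 and 1.09 on 2 arrays, and Gad1, another GABA-making enzyme, and Gabrp, at 0.90 and 0.46 on 1 array each. The subunits Gabrd and Gabrg3 had too few PAG saline arrays to be tested. Gabrd read -1.21 ± 1.35 after carrageenan (n = 5) and 0.53 and 5.345 after saline. Gabrg3 read -0.85 ± 1.47 (n = 4) and -0.47 (n = 1). Outside PAG, Gabra3 read -4.46 and -3.57 in right LDH and -2.49 in left LDH. In RVM it read -3.12 and 0.093 after saline and 0.15 after carrageenan. Gabra6 read -3.14 and -1.09 in left LDH. Slc6a11 read -0.29 in left LDH and 1.125 in RVM after saline.

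In RVM, carrageenan against saline, 0 of 4 GABA features were called, against 0% of 56. Gad2 differed by -0.023 (95% interval -1.38 to 1.34), Gabrq by -0.71 (-1.86 to 0.44), Gabrd by -2.08 (-6.46 to 2.30) and Gabre feature 74 by -0.0090 (-0.81 to 0.79). Against uninjected animals 0 of the 4 were called after carrageenan (1.79% of all 56) and 0 after saline (5.36%).

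In LDH 3 subunit features could be tested. Left minus right, Gabrr1 differed by 0.52 (95% interval -0.91 to 1.96), Gabrq by -0.11 (-0.82 to 0.61) and Gabre feature 74 by 0.011 (-0.65 to 0.67). Of these 3, 0 were called between sides or against uninjected animals on either side, against 0% of all 29 features in each of these comparisons. Gabrr1, at -0.31 ± 0.62 (n = 5) on the left and -0.83 ± 1.35 (n = 3) on the right, lay below 0 on average on both sides. It did so on 3 of 5 left and 2 of 3 right arrays, whereas feature 76 lay below 0 on every LDH array. Gabrq, at 0.40 ± 0.32 (n = 5) and 0.50 ± 0.61 (n = 4), lay above 0 on average.

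**Figure D4:**
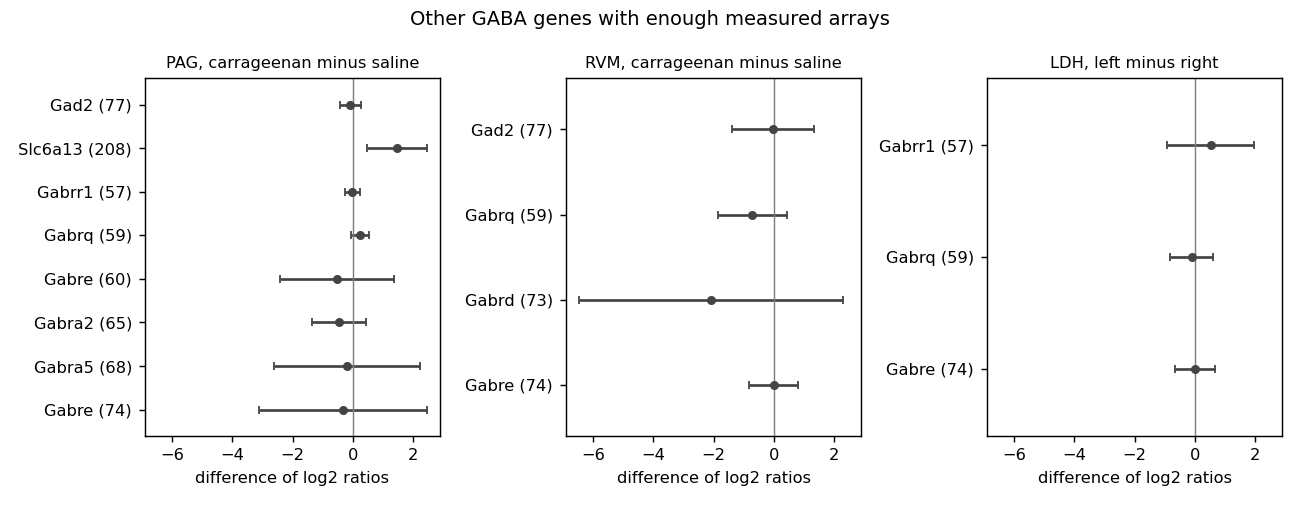
Difference of log2 ratios (horizontal axis) with its 95% interval from limma for each feature of the GABA lists that could be tested (feature number in brackets) in PAG and RVM, carrageenan minus saline, and in LDH, left minus right. Slc6a13 in PAG, at 1.47, is the 1 feature whose interval does not include 0, and it was not called after adjustment.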

How the data were processed

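Each array has a single deposited log2 ratio for each feature, from custom oligonucleotide arrays and 3DNA labelling of 5 µg of total RNA per the labels' protocols. Log base, centring and direction are not stated in the table; base 2 was inferred from the range of -13.245 to 10.459. Scanning, filtering and normalization by the authors are not given in the sources used. Exact zeros (55.9% of 6384 values) were taken as not measured. Array medians lay between -0.061 and 0.083, so values were not centred. The number of arrays limits the precision.

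Gene names came from the platform annotation and were updated by RefSeq gene ID (GRCr8; 191 of 202 named features matched). Each region's groups were fitted with limma 3.58.1 (R 4.3.3; lmFit, eBayes, two-sided, no covariates) on features that each group had measured on 3 or more arrays, and p-values were adjusted by Benjamini-Hochberg over all features of a comparison, with 0.05 as the threshold. The scripts were tested on simulated data with planted shifts larger than the Gabbr1 differences between groups given above. This checks the code and does not measure how often differences of the size seen here would be found. Group means against uninjected animals were tested against 0, which leaves out the controls' own spread. Gabbr1 was tested in LDH alone. Named genes were all Gabbr1 features, the listed GABA genes, and the 5 most similar and 2 most opposed features. The members, lists and rules were chosen with earlier results of these data known. All 8 annotated Gabbr1 features were used, including 34, 38 and 75.

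The alternatives were median centring, quantile normalization, zeros kept, at least 2 measured arrays, all 6 groups in 1 fit, robust variance, the replicate number as a block, an exact permutation test, leaving out each array and, chosen after seeing the data, leaving out arrays with fewer than 40 measured features.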

Additional observations from a re-analysis of the deposited data

How the results depend on the processing

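For feature 76, the difference between left and right LDH turned without right array 3 (-0.16) or right array 4 (-0.063), and ran from -0.16 to 0.66 over single arrays left out. Against uninjected animals the left mean ran from -1.19 to -0.63 and the right from -1.67 to -0.86 in those fits. It was not called in LDH under any alternative, with limma adjusted p from 0.594 to 0.982 between sides, from 0.0970 to 0.700 on the left and from 0.147 to 1 on the right, and 0 features of the array were called in LDH in any of these fits. The PAG difference ran from -2.06 to -1.43 and the RVM difference from 0.62 to 1.03 over single arrays left out. Quantile normalization brought the RVM difference to 0.11; no other alternative moved either difference by as much as the SD between arrays.

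The replicate number was shared by groups without any stated pairing, and deviations of same-numbered LDH arrays correlated at -0.78 (7 features), 0.22, -0.21 and -0.061. With it as a replicate block the LDH difference was 0.20 (limma adjusted p = 0.875), the PAG difference -1.71 and the RVM difference 0.90.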
